A study of Homo sapiens with 3 samples.

Results

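The genes described here encode the proteins of the cytosolic ribosome and their paralogs. They were chosen by symbol, as every gene whose name has the form RPL or RPS with a number, or RPLP0 to RPLP2 and RPSA. This gave 85 of the 36601 genes in the files. Of these, 46 encode the large subunit, 31 encode the small subunit and 8 are paralogs of such a gene, namely RPL22L1, RPL39L, RPS27L, RPL36AL, RPL7L1, RPL26L1, RPL3L and RPL10L. The 77 genes that are no paralog are called core genes below.

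All counts are from OVCAR3, an HGSOC (high-grade serous ovarian carcinoma) line long kept in culture. Cells stayed for 48 hours in the vehicle DMSO, in RAC1i at 50 μM, or in Combo, which is RAC1i at 50 μM plus EZH2i at 5 μM. The compound used as RAC1i was NSC23766, an inhibitor of RAC1 activation, and the one used as EZH2i was GSK126, an inhibitor of the enzyme EZH2 that methylates histone H3. With a single library for each condition there were no replicates, and differences between conditions could not be tested. The library treated with EZH2i alone was not analysed here.

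The ribosome reads mRNA on its small subunit and joins amino acids on its large subunit, and the growing chain leaves through a tunnel in the large subunit. Its proteins are made in nearly equal numbers, from single genes spread over most chromosomes. Many of their mRNAs begin with a run of pyrimidines, the 5′ terminal oligopyrimidine (TOP) motif, through which the kinase mTOR sets how much they are translated. A few ribosomal proteins have paralogs that can take their place, often in certain tissues, and ribosomal protein mRNAs are among the most abundant in dividing cells.

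Expression was measured as unique molecular identifiers (UMIs), each of which marks 1 captured mRNA molecule by its 3′ end. For each gene, UMIs of all kept cells in a library were added up and divided by all UMIs of those cells, as CPM, the counts in 1000000 UMIs. Because 1 UMI is counted per molecule whatever its length, levels of different genes are set side by side on the CPM scale without dividing by length. Intervals are exact 95% intervals for counting error only and leave out the difference between cultures. The kept cells numbered 7531, 10215 and 8239 in DMSO, RAC1i and Combo, and the median cell had 26750, 20989 and 24953 UMIs. The median mitochondrial share of a cell was 5.60%, 1.66% and 1.58%, lower in both treated libraries, and its part in the results was not tested. The libraries shared between 15 and 23 cell barcodes pair by pair. All 7 markers of OVCAR3 (epithelial and ovarian cancer genes) were detected in each library, and 7, 7 and 6 of them reached 10 CPM. Their summed level was highest in DMSO (2767 CPM, against 1632 with RAC1i and 1737 with Combo). Single markers differed: PAX8 had 355, 54.3 and 47.8 CPM, and EPCAM had 319.7, 274 and 302. Of the 8 markers of immune, endothelial and stromal cells 7, 8 and 6 were detected. They summed to between 7.56 and 8.41 CPM, and none reached 10 CPM.

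The core genes share a sequence at the start of transcription that the choice by symbol did not use. In the RefSeq promoters of GRCh38.p14, an unbroken run of at least 5 C or T bases on the transcribed strand covered the annotated first base in 49 of the 62 core genes found there (79%). The same was true of 11.9% of 27305 genes. Of the 6 paralogs with a promoter in that set, 2 had such a run. Below are 45 bases before and 15 bases from the annotated start of 9 genes on which the comparisons turn, each 5′ to 3′ on the strand of its gene, with the run in capitals. RPL22 and RPS27 stand beside their paralogs, and RPL39 is the parent gene of RPL39L. The run of RPL39 is 22 bases long and goes on past the last base shown. RPS9 and RPL24 were among the members with the largest differences upward, and RPLP0 and RPL3 among those with the largest differences downward.
RPL22 (chr1:6199581-6199640, minus strand): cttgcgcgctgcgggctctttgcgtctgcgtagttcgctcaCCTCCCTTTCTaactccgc
RPL22L1 (chr3:170870181-170870240, minus strand): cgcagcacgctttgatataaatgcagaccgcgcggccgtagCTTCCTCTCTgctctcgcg
RPS27 (chr1:153990717-153990776, plus strand): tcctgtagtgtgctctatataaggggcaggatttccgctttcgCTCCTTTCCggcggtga
RPS27L (chr15:63157463-63157522, minus strand): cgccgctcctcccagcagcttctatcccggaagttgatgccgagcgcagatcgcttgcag
RPL39 (chrX:119791616-119791675, minus strand): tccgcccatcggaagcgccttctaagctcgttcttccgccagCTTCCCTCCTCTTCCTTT
RPS9 (chr19:54200813-54200872, plus strand): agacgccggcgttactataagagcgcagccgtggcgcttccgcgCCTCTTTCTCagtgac
RPL24 (chr3:101686704-101686763, minus strand): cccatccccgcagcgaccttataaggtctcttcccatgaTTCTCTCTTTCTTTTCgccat
RPLP0 (chr12:120201097-120201156, minus strand): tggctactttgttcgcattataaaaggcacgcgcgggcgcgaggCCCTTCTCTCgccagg
RPL3 (chr22:39319609-39319668, minus strand): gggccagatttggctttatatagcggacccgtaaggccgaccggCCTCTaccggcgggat

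The run was 11 bases long in RPL22 and 10 in its paralog RPL22L1. It was 9 bases in RPS27, whereas the first base of RPS27L is no pyrimidine. A run was present both in genes that were higher after treatment (10 bases in RPS9, 16 in RPL24) and in genes that were lower (10 in RPLP0, 5 in RPL3). RPS26 and RPL10A, the core genes with the largest differences upward and downward in RAC1i over DMSO, had no such run. The runs are letters in the reference and say nothing about translation in these cells, which was not measured.

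Other features of the genes were taken from GENCODE 44 on GRCh38, which held all 85 members. The core genes lie on 21 chromosomes, with 12 of them on chromosome 19. Their coding length runs from 75 bases in RPL41, the shortest, to 1281 in RPL4. Between the start and end of 28 core genes, on the same strand, lie 60 genes of small nucleolar RNAs (snoRNAs), which guide the modification of ribosomal RNA. The paralogs hold none. Among 90-base words in the last 400 bases of the canonical transcript of each member, 81 members shared none with another gene of the files. The other 4 were RPS10 (69.8% of its words, shared with the readthrough gene RPS10-NUDT3), RPL12 (32.2%), RPL19 (5.79%) and RPS16 (5.14%). The counts of RPS10 and RPL12 are therefore uncertain, since reads may be split with the other gene or left out. The ends of other transcripts of the members were not checked, so the check does not clear every count.

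In DMSO the 85 genes took 21.8% of all UMIs, about equally divided between the large subunit (10.9%) and the small subunit (10.7%). Core genes made up 59 of the 100 genes with the highest CPM there. Their levels were far from equal: they ran from 258 CPM for RPS10 to 16082 CPM for RPS2, a 62.3-fold range, with a median of 2304 CPM. Without RPS10, whose count is uncertain, the lowest was RPL31 with 494 CPM and the range was 32.5-fold, a choice made after seeing the data. The 5 highest were RPS2 and RPS3 at the site where mRNA enters the small subunit, RPS16, RPLP1 of the stalk that calls in translation factors, and RPL41. They took 22.3% of the ribosomal protein UMIs. RPS2 had 16082, 12980.2 and 13636 CPM in DMSO, RAC1i and Combo, and RPS3 had 12232, 11132 and 10907. RPS16 had 6963, 10689 and 10535 CPM in the same order. In RAC1i and Combo RPS2 was thus at 0.807 and 0.848 of DMSO, and RPS3 at 0.91 and 0.892. Neither passed the limit for a lower gene that is given below. RPS16, at 1.54 and 1.51 of DMSO, passed the limit for a higher gene. With the median of all genes set to 0, the log2 ratios of RPS2 were −0.11 and −0.06. Those of RPS3 were 0.06 and 0.01 on that scale. The highest level exceeded the lowest by 49.9-fold in RAC1i and by 47.1-fold in Combo, and by 22.9-fold and 21.1-fold without RPS10.

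Paralogs were much lower than their parent genes, except for RPL36AL. RPL36AL had 806 CPM in DMSO against 1214 for RPL36A. Of the others, RPL22L1, RPL39L, RPL7L1, RPL26L1 and RPS27L had between 60.6 CPM (RPS27L) and 114 CPM (RPL22L1). RPL3L, known from heart and skeletal muscle, had 1.48, 1.55 and 1.24 CPM. RPL10L, an intronless gene known from the testis, had 0 UMIs in DMSO and in RAC1i and 2 in Combo. The 2 genes last named were under 10 CPM in all libraries, and the other 83 were above 10 CPM in every library, so the minimum of 10 CPM chose no member by a difference between libraries.

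RAC1i over DMSO asks what the RAC1 inhibitor did. The 85 genes took 25.28% of UMIs in RAC1i (25.27 to 25.28) against 21.82% in DMSO (21.81 to 21.82), a log2 ratio of 0.21. With mitochondrial UMIs left out of the total the log2 ratio was 0.15. The large subunit went from 10.9% to 13.1% (log2 0.26) and the small subunit from 10.7% to 11.9% (log2 0.15). The paralogs together went from 0.127% to 0.241% (log2 0.92). The median log2 ratio of all 8778 genes with at least 10 CPM was −0.20, so members at 0 on this scale stood above the median gene.

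The members did not move together. Of the 83, 32 were at least 25% higher in RAC1i (38.6%), 8 at least 20% lower (9.64%) and 43 in between. These limits are the same fold in both directions and are called the fold below. Over all genes 31.0% were higher and 45.7% were lower by that fold. With a fold of 1.5, 17 members were higher and 5 lower, against 22.7% and 36.9% of all genes. The share of members that were higher was thus near that of all genes, while the share that were lower was below it. Of the 97 other genes with at least 1000 CPM, 35.1% were higher and 30.9% were lower. The median log2 ratio was 0.20 over the 83 members, 0.18 over the large subunit and 0.08 over the small subunit. In the large subunit 18 of 46 genes were higher and 5 lower, and in the small subunit 9 of 31 were higher and 2 lower. The counts moved with the scale: 13 members were lower with the mean over cells of CPM, and 44 were higher and 5 lower with the median of all genes set to 0, where the log2 ratio of the total was 0.41. In the 6 paralogs 5 were higher and 1 was lower.

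**Figure D1:**
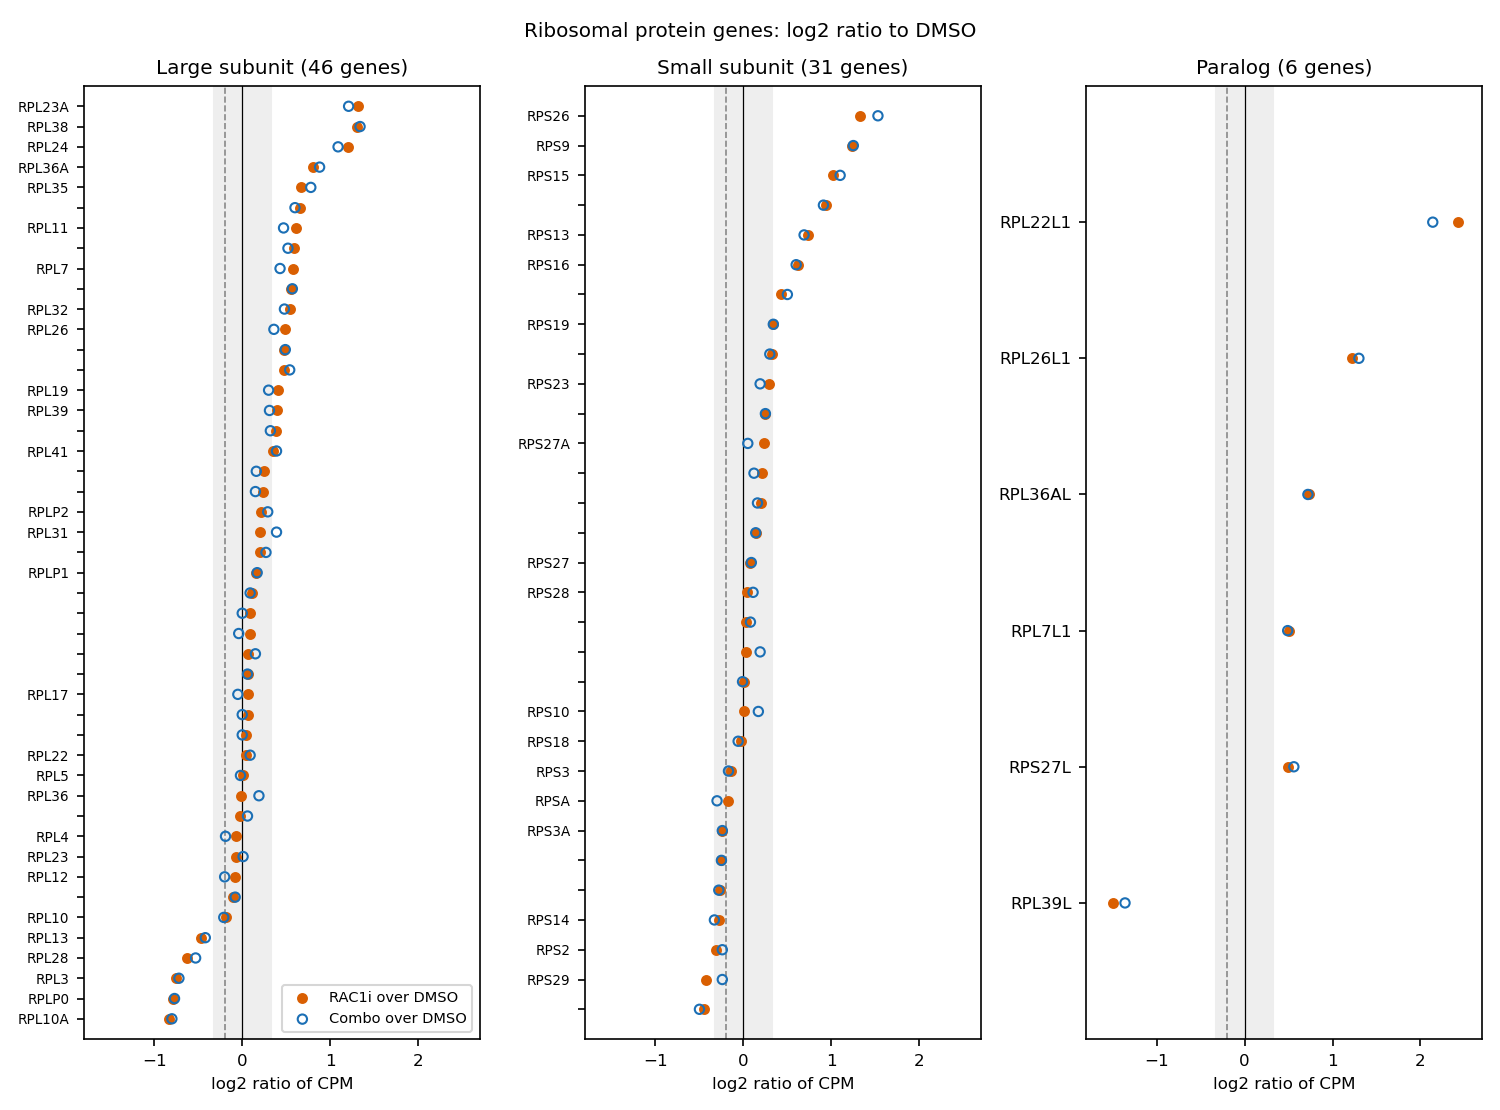
Log2 ratio of CPM to DMSO for the 83 genes with at least 10 CPM, by subunit and with paralogs apart, ordered by RAC1i over DMSO (filled) with Combo over DMSO as open circles. Genes named in the text are labelled. The grey band runs from 20% lower to 25% higher and the dashed line is the median of all genes for RAC1i (−0.20). RPL22L1 stands furthest to the right at 2.43 and RPL39L furthest to the left at −1.50.

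The largest difference upward was that of RPL22L1, which can replace RPL22 in the large subunit. RPL22L1 had 114 CPM in DMSO (113 to 116), 614 in RAC1i (611 to 617) and 502 in Combo (499 to 505), which is 5.38-fold higher in RAC1i than in DMSO. Next came RPS26, which lies where mRNA leaves the small subunit, with 1402, 3532 and 4049 CPM (2.52-fold in RAC1i). RPL23A, a docking site for targeting factors at the tunnel exit, had 1638, 4089.8 and 3797 CPM (2.50-fold). These 3 genes were high in both treated libraries and low in DMSO.

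RPL38, a small protein near the tunnel exit, had 1211, 2987 and 3059.8 CPM (2.47-fold). RPS9, at the mRNA entry of the small subunit, had 2734, 6458 and 6491 CPM (2.36-fold). RPL26L1, a close copy of RPL26, had 86.3, 200.5 and 213 CPM (2.32-fold). In all of these the levels of RAC1i and Combo lay far closer to each other than to DMSO. RPL24, which reaches from the large to the small subunit, had 2493, 5744 and 5321 CPM (2.30-fold). RPS15, whose tail reaches the decoding site, had 1719, 3481 and 3678 CPM (2.02-fold).

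The largest difference downward was that of RPL39L, a paralog known from the male germ line. RPL39L had 112 CPM in DMSO (111 to 113), 39.7 in RAC1i (38.9 to 40.5) and 43.7 in Combo (42.8 to 44.6). RPL10A, the protein of the mobile L1 stalk through which spent tRNA leaves, had 1379, 778 and 790.2 CPM (0.564 of DMSO in RAC1i). RPLP0, which carries the P-stalk, had 2193, 1271 and 1287 CPM (0.580). RPL3, next to the centre where peptide bonds form, had 2409, 1437 and 1466 CPM (0.597). Again DMSO stood apart from both treated libraries, here as the high one.

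RPL28, also of the large subunit, had 2304, 1492 and 1598 CPM (0.648 of DMSO in RAC1i). RPL13 had 1533, 1107 and 1142 CPM (0.722), and RPS29, a zinc-binding protein of the head of the small subunit, had 2088, 1563 and 1764 (0.748). RPS29 lay nearer to DMSO in Combo than in RAC1i. RPL41 and RPS19 (ratio 1.27 in both) were just past the fold, and RPS23 (1.22) and RPS2 (0.807) just short of it.

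**Figure D2:**
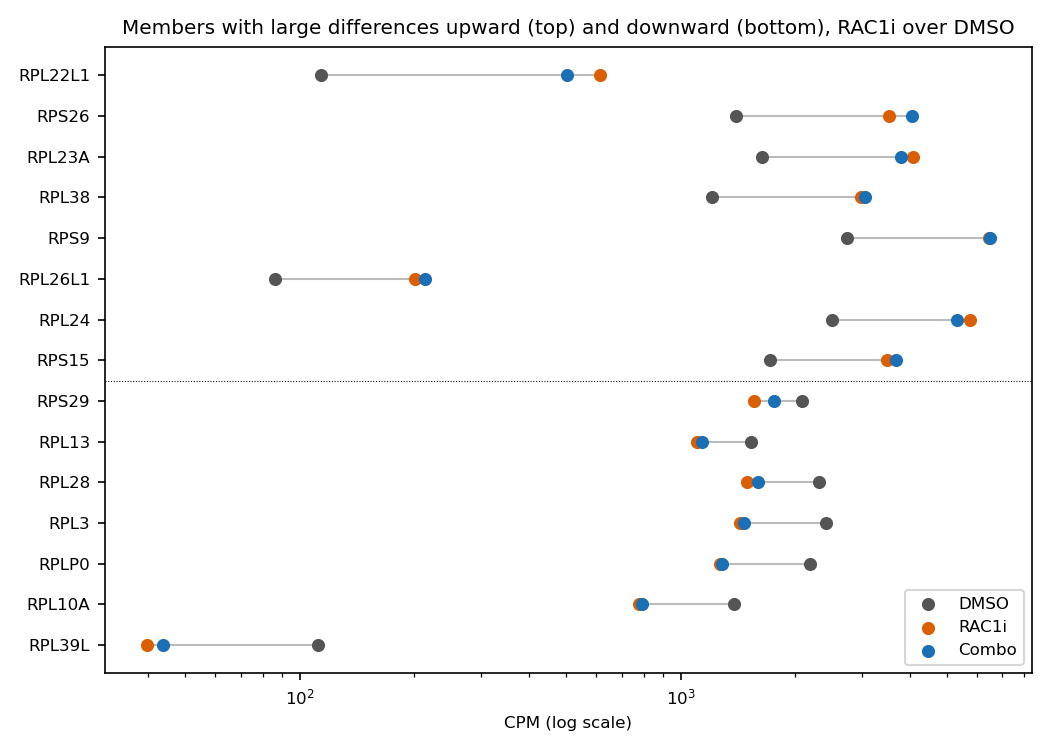
CPM on a log axis in DMSO, RAC1i and Combo for members named for a large difference upward (top) or downward (bottom) in RAC1i over DMSO. Each point is 1 library. In the upper genes shown DMSO is the lowest point, and in the lower genes shown it is the highest.

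Proteins of one site of the ribosome differed among themselves. At the tunnel exit 6 of 9 genes were higher and none lower, against 31.0% higher and 45.7% lower over all genes, with a median log2 ratio of 0.41. RPL23A (1.32), RPL38 (1.30), RPL35 (0.67), RPL26 (0.49), RPL19 (0.41) and RPL39 (0.40) passed the fold, while RPL31 was at 0.20, RPL17 at 0.06 and RPL22 at 0.04. At the mRNA entry and decoding site RPS9 (1.24) and RPS15 (1.02) were higher, and RPS23 (0.29), RPS18 (−0.03), RPS3 (−0.14) and RPS2 (−0.31) did not pass. At the mRNA exit RPS26 (1.33) was among the higher genes, and RPS28 (0.04), RPS3A (−0.24) and RPS14 (−0.28) did not pass.

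The P-stalk was split. RPLP0 was lower (−0.79), and RPLP1 (0.16) and RPLP2 (0.21), which bind to RPLP0 as pairs, did not pass the fold. Of the pair that binds 5S ribosomal RNA and holds the p53 regulator MDM2, RPL11 was higher (0.61) and RPL5 was at 0.01. RPL11 had 2339, 3571 and 3231 CPM and RPL5 had 1893, 1912 and 1862. RPS27A, made as a fusion with ubiquitin, was at 0.23. Of the other ribosome constituents, which have other symbols, FAU was higher (0.81) and the scaffold RACK1 was at −0.30.

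Because the total was higher too, the make-up of the ribosomal protein mRNA was compared within it. Of the ribosomal protein UMIs, 11.8% would have to move between genes to turn the DMSO make-up into that of RAC1i. RPS2 took 7.37% of them in DMSO and 5.13% in RAC1i. RPL24 took 1.14% and 2.27%. As a description across the 77 core genes, which share libraries and depth, Spearman's rho of the log2 ratio was −0.34 with coding length, −0.28 with the number of exons, −0.36 with the number of snoRNA genes and −0.11 with the level in DMSO. Of the 28 core genes with a snoRNA gene, 4 were higher and 3 lower (median 0.01), and of the 49 without, 23 were higher and 4 lower (median 0.25). Of the 49 genes with a pyrimidine run 17 were higher and 4 lower (median 0.20), and of the 13 without one 6 were higher and 2 lower (median 0.09). Over all genes 31.0% were higher and 45.7% lower, and the share of higher genes among those with a run was near that.

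Combo over DMSO asks what both inhibitors did together, and it shares the DMSO library with the comparison above. The 85 genes took 25.05% of UMIs in Combo (log2 0.20), with 12.9% for the large and 11.9% for the small subunit. Of the 83 members 29 were higher (34.9%) and 8 lower (9.64%), where over all 8745 genes 30.2% were higher and 44.8% lower. With a fold of 1.5, 15 members were higher and 4 lower, against 21.3% and 35.4% of all genes. Of the 96 other genes with at least 1000 CPM 35.4% were higher and 31.2% lower. The median log2 ratio was 0.16 over the members and −0.18 over all genes. The 8 largest differences upward were those of RPL22L1 (2.14), RPS26 (1.53), RPL38 (1.34), RPL26L1 (1.30), RPS9 (2.37-fold), RPL23A (1.21), RPS15 (1.10) and RPL24 (1.09). Among the largest downward were those of RPL39L (−1.36), RPL10A (−0.80), RPLP0 (−0.77), RPL3 (−0.72), RPL28 (−0.53), RPL13 (−0.42) and RPS14 (−0.33).

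By site, 5 of 9 genes of the tunnel exit were higher in Combo and none lower, against 30.2% and 44.8% of all genes. At the mRNA entry and decoding site RPS9 and RPS15 were higher (2 of 6), and at the mRNA exit RPS26 was higher and RPS14 lower. RPLP0 was the only P-stalk gene past the fold, and RPL11 was higher (0.47) with RPL5 at −0.02. The make-up differed from that of DMSO by 11.7% of the ribosomal protein UMIs.

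Combo over RAC1i asks what the EZH2 inhibitor added to the RAC1 inhibitor. The share of UMIs was 25.05% against 25.28% (log2 −0.01), and none of the 83 members passed the fold. Over all 7443 genes 4.66% were higher and 5.08% lower, and of the 83 other genes with at least 1000 CPM 2.41% were higher and 0.00% lower. With a fold of 1.5 the shares of all genes were 0.175% and 0.484%, and again no member passed. The log2 ratios of the members ran from −0.29 for RPL22L1 to 0.20 for RPL36 and RPS26. RPL36 had 1179 CPM in RAC1i and 1355 in Combo. RPS27A was next after RPL22L1 among the lower ones (−0.18), with 4330 CPM in RAC1i and 3821 in Combo. The make-up differed by 2.18% of the ribosomal protein UMIs.

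Each paralog was also set against its own parent gene, a comparison that does not use the library total. RPL22L1 (chr3:170864875-170870208) made up 3.76% of the UMIs of the pair with RPL22 (chr1:6185020-6209389) in DMSO, 17.0% in RAC1i and 13.9% in Combo. For each UMI of RPL22L1 DMSO held 25.6 of RPL22, RAC1i 4.89 and Combo 6.19. The odds of the paralog were 5.24-fold higher in RAC1i than in DMSO (5.16 to 5.31) and 4.14-fold higher in Combo (4.08 to 4.20). RPL22 itself had 2923, 3004 and 3108 CPM, close to level in the 3 libraries. In Combo the odds were 0.791 of those in RAC1i (0.784 to 0.798).

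RPL39L (chr3:187120948-187180908) made up 3.65% of the pair with RPL39 (chrX:119786504-119791630) in DMSO, 1.01% in RAC1i and 1.18% in Combo. Its odds were 0.269 of those in DMSO in RAC1i (0.263 to 0.276) and 0.314 in Combo (0.307 to 0.322). Here both genes differed, since RPL39 had 2955, 3887 and 3666 CPM while RPL39L was lower. RPL22L1 and RPL39L, close in level in DMSO at 114 and 112 CPM, were thus 614 and 39.7 CPM in RAC1i.

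RPL26L1 made up 3.36% of the pair with RPL26 in DMSO, 5.42% in RAC1i and 6.28% in Combo. RPL26 was higher too, with 2485, 3496 and 3178 CPM. RPS27L, a target of p53, made up 1.74%, 2.31% and 2.40% of the pair with RPS27. In these 2 pairs the paralog's share was highest in Combo. In the last 2 pairs paralog and parent differed by similar folds and the share moved little. RPL36AL made up 39.9%, 38.7% and 37.2% of the pair with RPL36A, and RPL7L1, which works in ribosome assembly, made up 4.83%, 4.61% and 5.02% of the pair with RPL7. RPL3L stayed between 0.0613% and 0.108% of the pair with RPL3. RPL10L had 0 UMIs beside 539999 of RPL10 in DMSO, which by a limit of 3 counts allows a share of up to 0.000556%, and 0 beside 558112 in RAC1i, which by that limit allows up to 0.000538%.

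**Figure D3:**
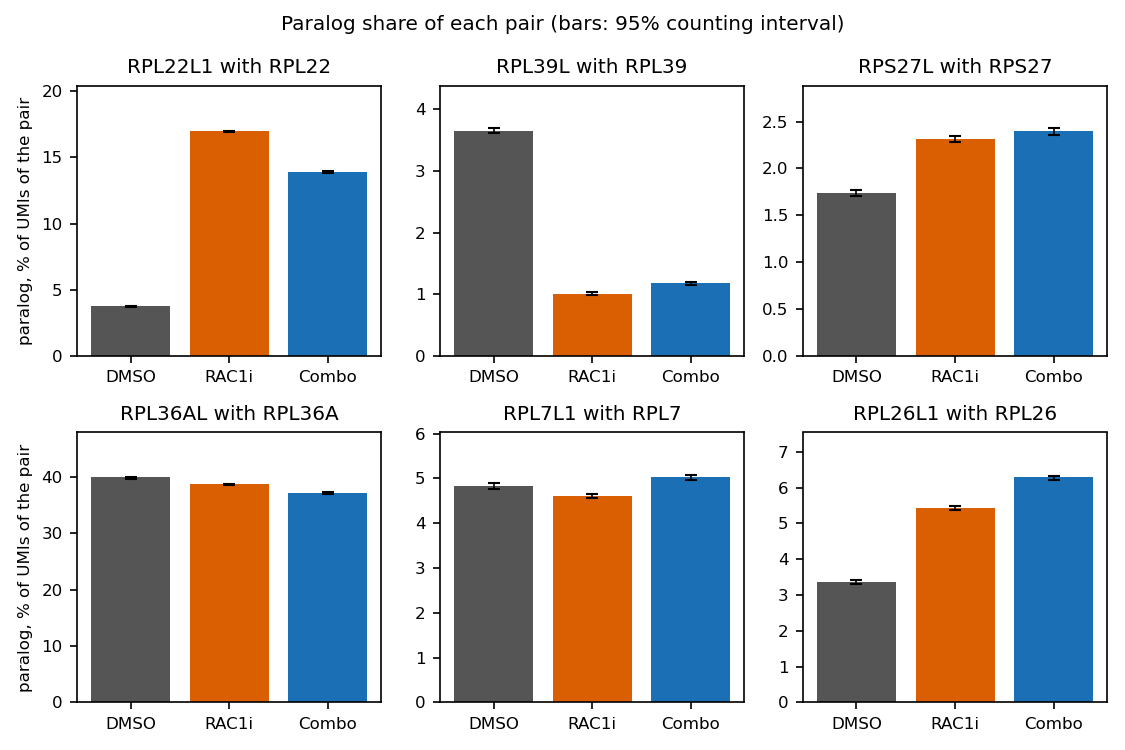
UMIs of the paralog as a percent of all UMIs of paralog and parent, for 6 pairs in DMSO, RAC1i and Combo, with 95% Clopper-Pearson intervals for counting error. Each panel has its own axis from 0. RPL22L1 goes from 3.76% to 17.0% and 13.9%, RPL39L from 3.65% to 1.01% and 1.18%, and RPL36AL stays between 37.2% and 39.9%.

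The differences in the paralogs were also seen in the share of cells with a UMI. For this, 5000 UMIs were drawn from every cell, and shallower cells (806, 1015 and 885 in DMSO, RAC1i and Combo) were left out. RPL22L1 was found in 40.8%, 84.3% and 78.7% of thinned cells in the same order. RPL39L was found in 41.2%, 15.1% and 16.1%. Without thinning the shares were 79.9%, 91.0% and 88.1% for RPL22L1 and 78.9%, 42.5% and 47.0% for RPL39L. RPL26L1 was found in 35.5%, 62.1% and 63.6% of thinned cells. Since OVCAR3 was the one cell type in culture, the share that free RNA gives could not be measured. RPL3L was found in between 0.565% and 0.897% of thinned cells.

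How much a gene varied from cell to cell was measured on the thinned counts as the variance above counting noise, divided by the squared mean (excess CV2). Over the core genes its median went from 0.0820 in DMSO to 0.0930 with RAC1i and 0.100 with Combo. Of the 77, 55 were higher in RAC1i than in DMSO. Excess CV2 was not computed for genes outside the members, so this count has no share over all genes beside it. It is not read as a trait of ribosomal protein genes. For RPL22L1 it was 0.0920, 0.475 and 0.528, and for RPL39L 0.147, 0.894 and 0.700. The level of RPL22L1 was thus both higher and less even among treated cells. RPS26 went the other way, from 0.163 in DMSO to 0.0764 and 0.0777. RPL32, RPS27 and RPL38 had the highest values among core genes in Combo, at 0.251, 0.227 and 0.224.

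Cells of different depth gave different totals. The kept cells were divided into 5 ranges of UMIs per cell, which were chosen after the data were seen. In cells under 5000 UMIs the median ribosomal protein share of a cell stood at 26.6% for DMSO, 21.2% for RAC1i and 18.3% for Combo. From 5000 to 15000 UMIs it was 27.2%, 27.1% and 27.5%. From 15000 to 25000 UMIs it was 20%, 25.7% and 26.7%. The treated libraries were thus lower in the shallowest cells, about level in the next range and higher in deeper cells. The median was 20.8%, 25.2% and 25.5% from 25000 to 40000 UMIs, and 22.0%, 24.8% and 24.1% at 40000 UMIs or more. In the shallowest cells and in every range from 15000 UMIs upward the median mitochondrial share differed from DMSO in the opposite direction. It was 1.12%, 6.33% and 7.02% in cells under 5000 UMIs, and 7.78%, 1.46% and 1.49% from 15000 to 25000 UMIs. From 25000 to 40000 UMIs it was 6.34%, 1.38% and 1.3%, and at 40000 UMIs or more 5.41%, 1.18% and 1.24%. Its part in the result was not tested.

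**Figure D4:**
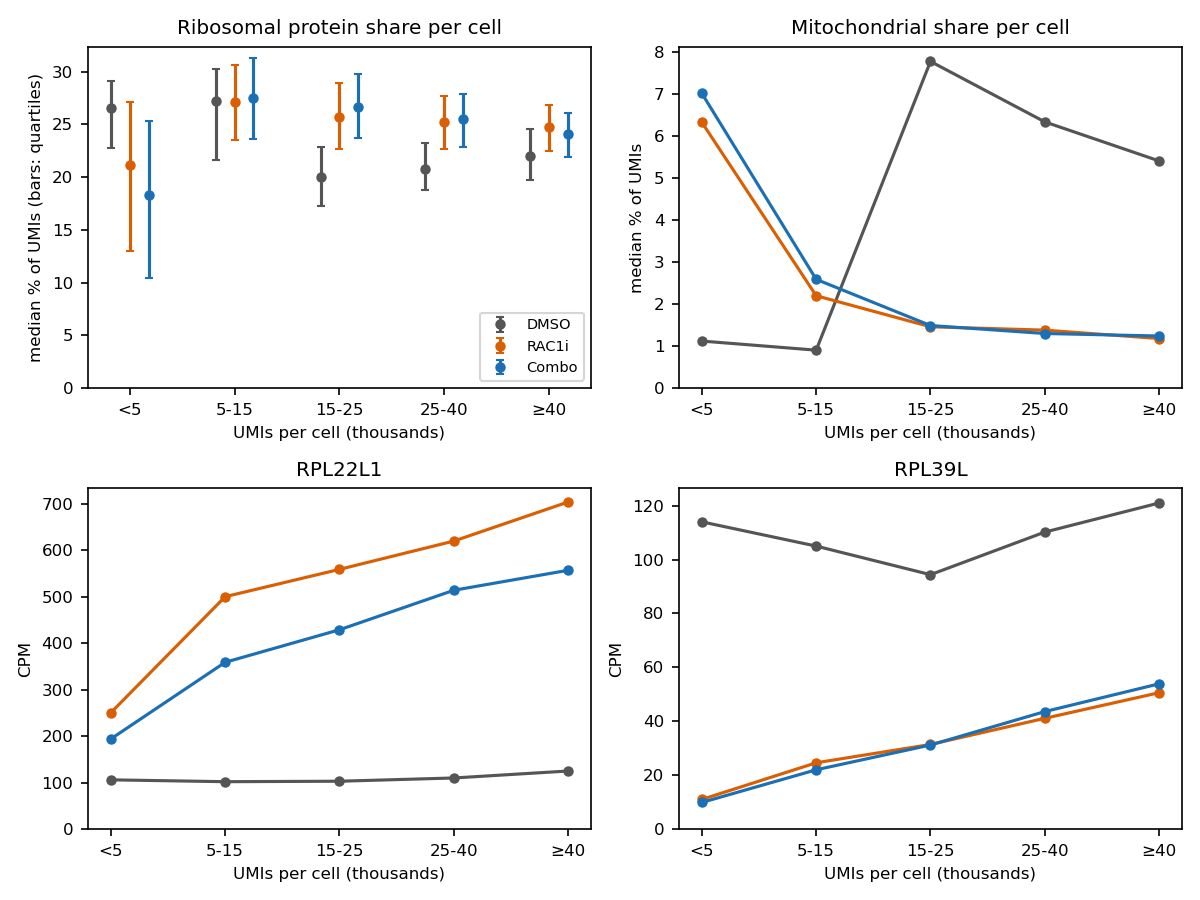
Kept cells in 5 ranges of UMIs per cell, in DMSO, RAC1i and Combo. The upper panels give the median share of UMIs per cell from ribosomal protein genes, with quartiles as bars, and from mitochondrial genes. The lower panels give the CPM of RPL22L1 and RPL39L. RPL22L1 is above its DMSO level and RPL39L below it in all 5 ranges, while the order of the ribosomal protein share turns between the shallowest and the deeper cells.

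RPL22L1 and RPL39L differed from DMSO in the same direction at every depth. RPL22L1 had between 102 and 125 CPM over the 5 ranges in DMSO. It went from 250.5 CPM in RAC1i cells under 5000 UMIs to 704 in those of 40000 or more, and from 194 to 557 in Combo. RPL39L had between 94.4 and 121 CPM in DMSO, between 11.0 and 50.6 in RAC1i and between 9.88 and 53.9 in Combo. In all 3 libraries both genes were highest in the deepest cells.

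Of the 32 members that were higher in RAC1i, 20 had a log2 ratio above 0 in all 5 ranges and 15 passed the fold in all. Of all genes that were higher, 81.6% were above 0 in all ranges and 65.1% passed the fold in all, larger shares than among the members. Of the 34 higher genes with at least 1000 CPM that are no members, 55.9% and 41.2% did, smaller shares than among the members. Of the 8 members that were lower, all 8 were below 0 in every range and 5 passed the fold in all, against 73.7% and 59.2% of all genes that were lower and 63.3% and 50.0% of the 30 such genes of high level. Those 5 were RPL39L, RPL10A, RPLP0, RPL3 and RPL28. For Combo the numbers were 17 and 8 of the 29 that were higher, and 8 and 4 of the 8 that were lower. Over all genes the shares were 76.6% and 58.9% of those higher, and 68.7% and 52.6% of those lower. Over the genes of high level they were 47.1% and 38.2% of those higher, and 60.0% and 46.7% of those lower. RPS26 was at 0.13 in RAC1i cells under 5000 UMIs and between 0.87 and 1.38 in the other ranges. RPS13 was at −0.59 in the shallowest cells, against 0.74 over all kept cells. RPL38 lay between 1.21 and 1.73.

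In cells with and without transcripts of the cell cycle, RPL22L1 was higher and RPL39L lower than in DMSO. Thinned cells with at least 3 UMIs of 12 G2/M genes numbered 4573 in DMSO, 5463 in RAC1i and 4424 in Combo. Those with no UMI of the G2/M genes or of 12 S phase genes numbered 297, 173 and 192. The log2 ratio of RPL22L1 in RAC1i over DMSO was 2.34 in the former and 3.18 in the latter, and that of RPL39L was −1.55 and −0.89. RPL23A was at 1.31 in both. The summed level of the G2/M genes was itself lower in RAC1i (log2 −0.51), as was that of the S phase genes (−0.74), and their part in the results was not tested.

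Other genes of translation were counted by the same fold, which in RAC1i over DMSO 31.0% of all genes passed upward and 45.7% downward. Of 12 measured subunits of eIF3, which brings mRNA to the small subunit, 5 were higher in RAC1i and 2 lower. EIF3D had the largest difference upward (92.3 CPM in DMSO and 202 in RAC1i) and EIF3K the largest downward (956 and 435 CPM). Of 7 genes listed as elongation factors 2 were higher and 2 lower. The higher ones were EIF5A and EEF1E1. The log2 ratios of the others were all below 0, from −0.85 for EEF1A1 to −0.20 for EEF1D. EIF5A, which helps ribosomes past prolines, had 287, 577 and 585 CPM, and EEF1A1, which brings tRNA to the ribosome and has a TOP mRNA, had 5804, 3226 and 3108. The summed level of the 7 was lower in RAC1i (log2 −0.50).

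Of 8 other genes with TOP mRNAs 3 were higher in RAC1i and 2 lower. BTF3 had 1034, 1547 and 1477 CPM, and TPT1 had 2177, 940.0 and 930.3. Of 11 regulators of ribosomal protein mRNA 4 were higher, a share near that of all genes, and 7 lower. EIF4E, which binds the mRNA cap, had 79.0, 211 and 183 CPM, and EIF4EBP1, which holds EIF4E back, had 287, 97.6 and 98.4. MTOR had 58.1, 23.0 and 21.7 CPM and the TOP-binding protein LARP1 had 100.3, 75.4 and 70.0.

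Of 5 measured chaperones that each hold 1 ribosomal protein until it joins the ribosome, 4 were higher in RAC1i and 1 lower. BCCIP, which holds RPL23, had 79.5, 188 and 170.1 CPM. PDCD2, which holds RPS2, had 96.7, 71.1 and 78.5. TSR2, the chaperone of RPS26, had 48.8, 69.4 and 80.9 CPM. GRWD1 had 18.5, 35.1 and 38.2 CPM, and PDCD2L had 23.6, 40.1 and 36.5. Whether chaperones moved with the proteins they hold was not tested, and RPL23 was at −0.07 in RAC1i over DMSO. HEATR3 was under 10 CPM. Of 77 measured proteins of the mitochondrial ribosome, which come from another set of genes, 32 were higher and 21 lower in RAC1i (median 0.20). In Combo over DMSO 30.2% of all genes were higher and 44.8% lower. The counts higher and lower were 6 and 2 of the 12 eIF3 subunits, and 2 and 3 of the 7 listed elongation factors. They were 2 and 3 of the 8 TOP genes, and 4 and 7 of the 11 regulators. They were 4 and 0 of the 5 chaperones and 36 and 18 of the 77 mitochondrial ribosomal proteins. In Combo over RAC1i only 4 of these genes with at least 10 CPM passed the fold, 3 mitochondrial ribosomal proteins and the kinase RPS6KB2, which were higher. The regulator MYC was lower (9.3 CPM in RAC1i and 5.45 in Combo), as were EIF3C (8.51 and 6.56) and HEATR3 (3.59 and 2.87). All of these were under 10 CPM in both libraries and were not counted.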

How the data were processed

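Single-cell libraries of OVCAR3 in DMSO, RAC1i or Combo were used, 1 for each. The authors deposited raw UMI counts for every gene in each barcode, made with Cell Ranger 4.0.0 on GRCh38, without normalization. A cell was kept when it had more than 1000 genes, no more than 20% of its UMIs from mitochondrial genes, and a ratio of log10 genes to log10 UMIs above 0.8. Kept UMIs totalled 199063947, 234969742 and 212792113 in DMSO, RAC1i and Combo.

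Counts were added up within each library and scaled to CPM. The 95% intervals used were exact: Poisson for CPM values, conditional binomial for ratios, Fisher's noncentral hypergeometric for odds ratios, Clopper-Pearson for shares. They cover counting error only. A floor of 3 counts was used for a count of 0. With 1 library per condition no test was run. A gene was counted as higher from 25% above and as lower from 20% below, where the larger CPM reached 10. Named members are all pairs and site groups, the 5 highest in DMSO, and the 8 largest differences each way among members with at least 50 CPM. For the other lists the genes with the largest differences were named. LARP1, MTOR, MYC, EIF3C, EEF1D, EEF1E1, TSR2, GRWD1, PDCD2L, HEATR3, RPS6KB2, PAX8 and EPCAM were picked with their values in view. So were members given for their cell-to-cell spread or for their place next to the fold limit. Counts cover all members, but the values of some are not reported here. The members and lists were chosen with earlier results of these data known. Calculations used Python 3.11.15 with numpy 2.4.6 and scipy 1.17.1 and were tested on simulated data. TMM (edgeR 4.0.16) and size factors (DESeq2 1.42.0) were among the alternatives. No doublet caller was run. Promoters came from RefSeq on GRCh38.p14 and gene positions from GENCODE 44.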

Additional observations from a re-analysis of the deposited data

Results flagged for a closer look

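Barcodes that the limits on cells left out were not used in the comparisons, and in them the ribosomal protein genes of both treated libraries also stood above the DMSO library. In DMSO, RAC1i and Combo they numbered 2540, 1557 and 1518, their median UMIs were 1810, 1462 and 1588, and their median mitochondrial shares were 40%, 12.8% and 11.2%. RPL22L1 had 875 CPM in the left-out barcodes of RAC1i and 710.4 in those of Combo, against 60.5 in those of DMSO. RPL39L had 31.7, 41.3 and 46.8 CPM in the same order, a smaller difference on the CPM scale than in kept cells. As a share of the pair with RPL39, which does not use the library total, RPL39L made up 0.792%, 1.06% and 3.34% there. In kept cells these shares were 1.01%, 1.18% and 3.65%. RPL10A (748, 743 and 565 CPM), RPLP0 (1215, 1222 and 1056) and RPL3 (1426, 1384 and 1059), which were lower than DMSO in kept cells, were higher there in CPM. These CPM values are shares of all UMIs, and the total of the ribosomal protein genes was itself far lower in DMSO. Ribosomal protein genes took 26.0% of the UMIs there in RAC1i and 25.6% in Combo, against 9.79% in DMSO. These shares are of the pooled UMIs, to which deep barcodes add most. The median over left-out barcodes was lower, at 13.3% in RAC1i, 13.9% in Combo and 6.16% in DMSO, and the upper quartile was 24% in both treated libraries and 21% in DMSO. The part of the mitochondrial share in these values was not tested.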

How the results depend on the processing

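No paired analysis was possible because each condition was 1 library. Every value below is on the log2 scale unless it is a count or given in percent. The share of ribosomal protein UMIs in RAC1i over DMSO (0.21) and in Combo over DMSO (0.20) stayed above 0 in all alternatives. It was 0.19 and 0.18 with a mitochondrial limit of 10%, 0.25 and 0.23 with every deposited barcode, 0.22 and 0.22 without the 5% of cells with the most UMIs, and 0.31 and 0.35 in cells of 15000 to 30000 UMIs. It was 0.16 and 0.14 as a mean over cells of CPM, 0.29 and 0.29 with TMM, and 0.33 and 0.32 with size factors of DESeq2. It was 0.15 and 0.13 with a total without mitochondrial genes, 0.28 and 0.26 with a total without the member genes, and 0.41 and 0.38 with the median of all genes set to 0. Cells with at least 5000 UMIs, a choice made after seeing the data, gave 0.22 and 0.21. In kept cells under 5000 UMIs, which were not among the alternatives, the share was lower in both treated libraries than in DMSO. There it was 26.3% of UMIs in DMSO, 21.1% in RAC1i and 19.1% in Combo. For Combo over RAC1i (−0.01) the sign turned to 0.04 in cells of 15000 to 30000 UMIs, and the other alternatives lay between −0.02 and 0.00 (−0.01 with the limit of 10%, DESeq2, the total without mitochondrial genes and cells of at least 5000 UMIs, and −0.02 with the mean over cells, the total without members and the median set to 0). The cause was not tested.

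With a fold of 1.5, 17 members were higher and 5 lower in RAC1i over DMSO, and 15 and 4 in Combo over DMSO. With the median of all genes set to 0, 44 were higher and 5 lower in RAC1i, and 46 and 5 in Combo, and size factors of DESeq2 gave 39 and 7, and 36 and 6. The mean over cells of CPM gave 13 lower in RAC1i, and cells of 15000 to 30000 UMIs gave 5 lower in Combo over DMSO and 1 lower in Combo over RAC1i. The odds of RPL22L1 against RPL22 were 2.44 in RAC1i and 2.11 in Combo over DMSO with every barcode, 2.36 in RAC1i without the 5% of deepest cells, and 2.33 and 1.90 in cells of 15000 to 30000 UMIs. Those of RPL39L against RPL39 were −1.97 and −1.76 without the 5% of deepest cells, and −1.97 and −1.94 in cells of 15000 to 30000 UMIs. Of the 51 named members, 29 passed the fold in RAC1i over DMSO, and 24 of them passed it in the same direction in all 11 alternatives on cells and scaling. The other 5 included RPL13, RPL41 and RPS29. For Combo over DMSO it was 19 of 27, and those lost included RPL7, RPL7L1, RPL13, RPL26, RPL31, RPL41 and RPS14. Some of the named members were picked for their large differences in these same data. These counts therefore do not measure how stable the members are as a set.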
